A study of Arabidopsis thaliana with 34 samples.

Results

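The set described here holds the 74 probe sets, of 22746 tested on the Affymetrix ATH1 array, whose signal was strong in leaves of the Arabidopsis thaliana accession Columbia-0 (Col) and low in both Rschew (Rsch) and Tenela (Te). They were chosen from the accession means, each the mean of the 4 condition means: a Col mean of at least 6 log2 and a difference of -1.5 log2 or lower both for Rsch minus Col and for Te minus Col. The 74 are 0.325% of all probe sets tested and 0.634% of the 11679 with a Col mean of at least 6. Of the 74, 38 carry 1 gene in the platform annotation, 5 carry several and 31 are unnamed here. The rule also leaves out QQS, AT2G25450 and PME41, whose probe sets missed the limit in Te in any case, with Te minus Col at 1.03, -0.57 and -1.27 log2, so 0 probe sets had to be removed by name.

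The study followed leaf transcripts of the 3 accessions through acclimation to cold and then to sub-zero temperature. Plants of Rsch, Te and Col aged 42 days spent 14 days at 4 °C, which gave the cold acclimated (CA) groups. Other leaves then spent 8 h, 1 d and, at most, 3 d at a temperature of -3 °C. A day length of 16 h is given for the plants of every group. CA leaves came from intact plants in light, whereas the leaves at -3 °C had been detached and stayed in darkness, so those differences cannot be told apart from temperature. There were 34 arrays, 12 of Rsch, 12 of Te and 10 of Col, with 3 per group, or 2 for the Col groups of 8 h and 3 d. Each array carried RNA of 1 pool of leaves from 3 plants, so the p-values measure the spread between such pools, and the number of arrays limits the precision.

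Accessions are inbred lines from natural populations, and they differ in gene content as well as in sequence. Intracellular immune receptors of the NLR class, which recognise pathogen effectors through a nucleotide-binding domain and leucine-rich repeats, are among the most variable gene families between Arabidopsis accessions. The short probes of the ATH1 array follow the Columbia-0 genome, so a gene that is absent, one whose sequence differs under the probes and one with less transcript all give a lower signal. These cannot be told apart with the data used here. In leaf RNA, fewer cells of a type and less RNA per cell cannot be told apart either.

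The values are deposited log2 intensities, compared for 1 probe set at a time, since levels of different probe sets are not on a common scale. The table holds no detection calls, and the 40th percentile of all its values, 5.32 log2, serves below as a dim line for description only. Array medians lay between 5.97 and 6.22 log2. The 5 leaf markers measured, among them RCA and PRK, lay between 8.96 and 12.31 log2, against 3.53 to 5.03 log2 for the 2 root markers and 3.88 to 3.96 log2 for 1 pollen marker. All 34 arrays correlated best, on average, with arrays of their own accession. Within their accession 7 arrays, 5 of them in Te, correlated more with another condition than with their own. In Te, replicate 1 of the 1 d group (0.11 with its own group and 0.502 with the 3 d group) and replicate 1 of the 3 d group (0.385 with its own and 0.461 with the 1 d group) each correlated more with the other's group, so Te results at these times are also given without both (the 2 doubted Te arrays below). Replicate 3 of Rsch at 8 h correlated at 0.236 with its own group and 0.44 with the 1 d group, and without it 0 members were called in Rsch at 8 h, as with it. The other 4 arrays (replicates 2 and 3 of Te at 1 d, replicate 2 of Te at 8 h and replicate 2 of Col at 1 d) fell short by 0.004 to 0.072. The bioC hybridisation controls split the arrays into a set of 9 (replicate 1 of the CA, 1 d and 3 d groups, mean 6.75 log2) and a set of 25 (mean 8.05 log2).

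Signal of the set averaged 5.57 ± 0.20 log2 per array in Rsch and 5.37 ± 0.11 in Te (SD, n = 12 each), against 8.34 ± 0.18 in Col (SD, n = 10). The highest Rsch array stood at 5.82 and the highest Te array at 5.54, below the lowest Col array at 8.08. This separation follows from the rule and is a description. The median difference over the 74 was -2.31 log2 for Rsch minus Col (from -6.84 to -1.5) and -2.47 for Te minus Col (from -6.94 to -1.51), while over all probe sets the medians were 0.048 and 0.044. Within the smaller bioC set the medians were -2.70 and -2.65, and within the larger set -2.20 and -2.48, with all 74 lower in both accessions in either set.

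**Figure D1:**
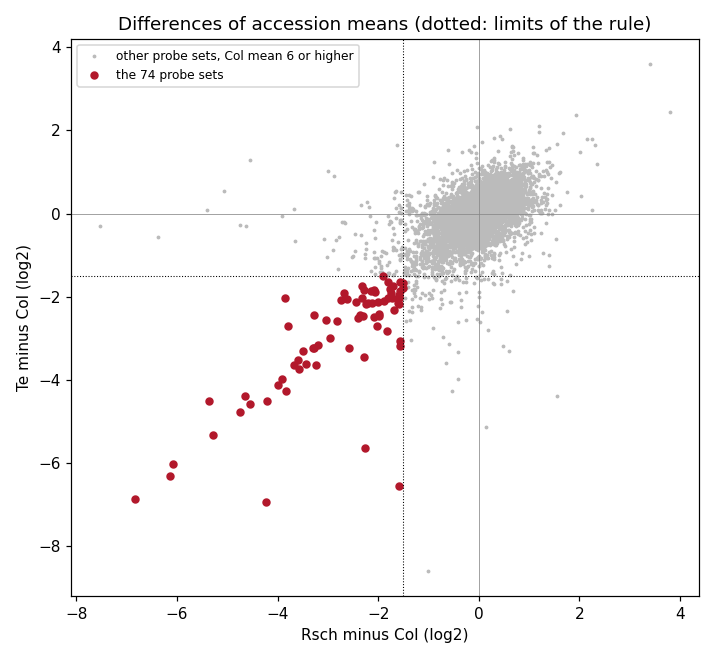
Differences of accession means in log2, Rsch minus Col on the horizontal axis and Te minus Col on the vertical axis, for probe sets with a Col mean of 6 or higher. Red points are the 74 probe sets, which lie at or beyond -1.5 on both axes (dotted lines), most of them close to the diagonal.

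The Te mean lay within 0.5 log2 of the Rsch mean for 54 of the 74, and the means were 1 log2 or more apart for 9. The share of all probe sets within these bounds was not counted. The median distance between both means was 0.076 log2 for the 25 members with every Rsch and Te array below the dim line. It was 0.434 for the other 49. Holding every array below that line keeps both means low and limits their distance, so these medians are a description. Te minus Rsch was called by limma for 27% of the members, against 22.2% of all probe sets. Of the other probe sets with a Col mean of at least 6, 29.9% were called. All 74 were lower in both accessions than in Col in each of the 4 conditions. Both differences reached -1.5 log2 in 65 members among CA leaves, 70 at 8 h, 54 at 1 d and 59 at 3 d, and in all of them for 45 members. The arrays of Rsch and Te stayed wholly below those of Col for 46 members and overlapped with them for 28. The rule used this contrast, and of all probe sets with a Col mean of at least 6, 0.676% separated in that way.

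Members were split in 2 at the dim line, a cut made for description that no test placed. For 25 of them every one of the 24 Rsch and Te arrays lay below the dim line, as did 0.223% of the probe sets with a Col mean of at least 6. Their median level was 4.00 log2 in Rsch and 3.97 in Te, against 7.32 in Col. The pooled SD within groups had a median of 0.181 in Rsch and 0.152 in Te, against 0.491 in Col. The cut itself holds these Rsch and Te arrays low and limits their scatter, so both are a description. The other 49 had median levels of 6.11 in Rsch and 5.81 in Te, against 8.58 in Col, and their pooled SDs had medians of 0.507 and 0.367, against 0.521 in Col. The Rsch mean was below the dim line for 40 members and the Te mean for 39, with both below it for 35, while 0.968% and 0.831% of the probe sets with a Col mean of at least 6 were below it in Rsch and in Te.

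**Figure D2:**
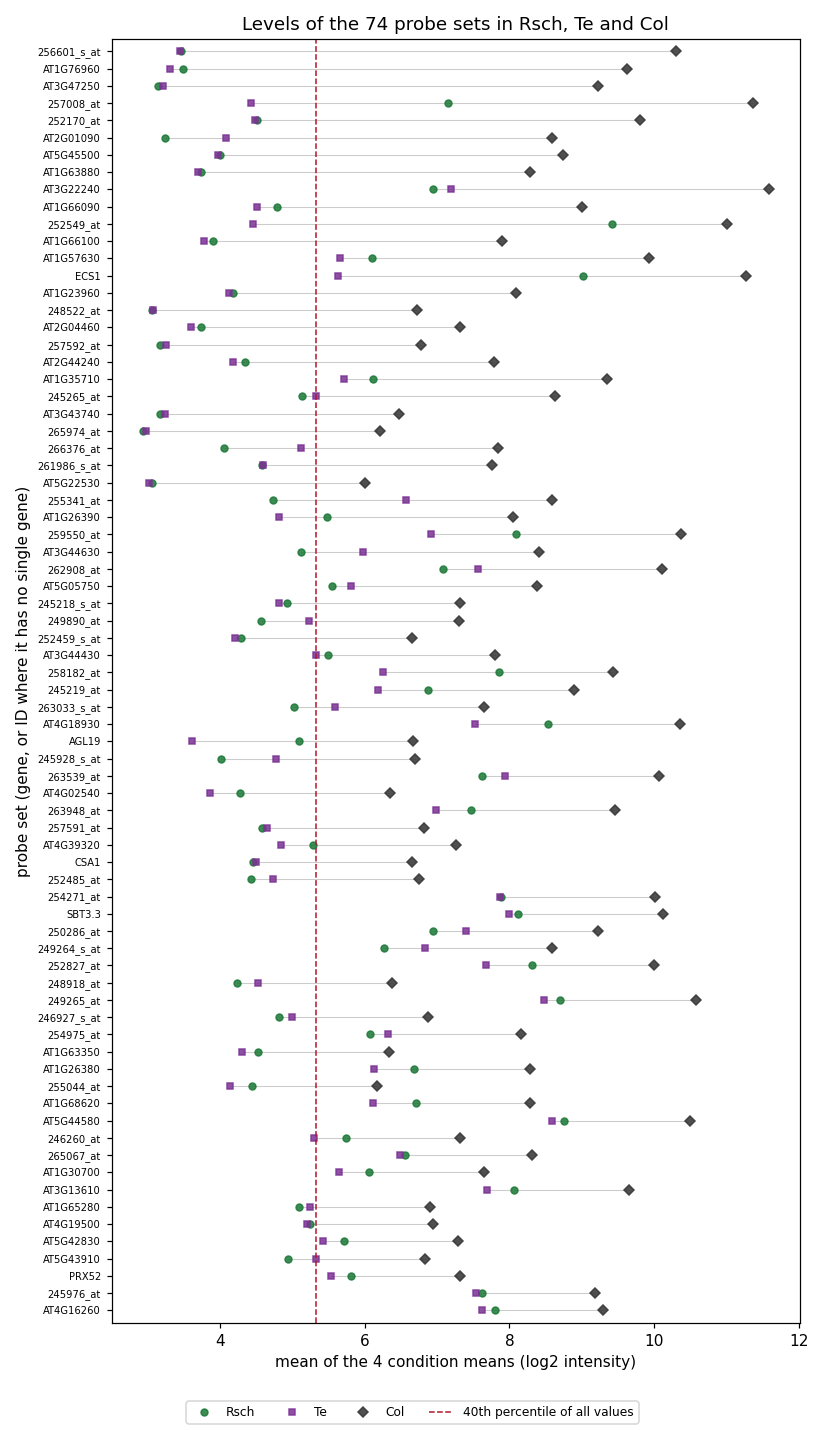
Mean log2 intensity of each of the 74 probe sets in Rsch (green circles), Te (purple squares) and Col (dark diamonds), sorted by the mean of both differences from Col. Upper rows reach differences beyond 6 log2, and for 35 rows both the Rsch and the Te mean lie left of the dashed line at the 40th percentile of all values.

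Of the 38 named members, 7 are immune receptor genes. The share of such genes among all probe sets tested was not counted, so whether they are over-represented was not tested. The groupings by family used from here on were made with the members in view, and they are a description. Of the 7 receptor genes, 5 encode TIR-class proteins with a nucleotide-binding domain (AT1G63880, AT1G66090, AT3G44630, CSA1 and AT4G19500), AT1G57630 encodes a TIR domain protein and AT1G63350 a coiled-coil NLR. Their differences from Col ran from -4.55 to -1.71 log2 in Rsch and from -4.58 to -1.74 in Te. The arrays overlapped with Col for 0 of the 7, against 28 of all 74 members. Of all probe sets with a Col mean of at least 6, 0.676% had no overlap. The contrast with Col chose the members, so overlap counts by family are a description. For 4 of them (AT1G63880, AT1G66090, CSA1 and AT1G63350) all Rsch and Te arrays were below the dim line.

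AT1G63880 had a lowest, median and highest array of 3.42, 3.76 and 3.96 log2 in Rsch and of 3.46, 3.73 and 3.91 in Te, against 7.53, 8.45 and 8.78 in Col. The Rsch and Te arrays lay in narrow bands far below every Col array. AT1G57630 stood higher in the low accessions, with 4.82, 6.33 and 6.96 log2 in Rsch and 5.36, 5.64 and 6.21 in Te, against 8.78, 9.99 and 10.85 in Col. Of its arrays 10 of 12 in Rsch and all 12 in Te were above the dim line, and none reached the lowest Col array. AT3G44630 was at 4.57, 5.14 and 5.46 log2 in Rsch and 5.10, 5.95 and 6.68 in Te, against 7.40, 8.46 and 8.99 in Col.

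AT1G66090 encodes a TIR-NB protein, and the next gene in the RefSeq order, AT1G66100, encodes a thionin, a small antimicrobial peptide. AT1G66090 spanned 3.97 to 5.19 log2 in Rsch and 4.12 to 4.87 in Te, against 7.44 to 9.95 in Col. AT1G66100 spanned 3.62 to 4.10 log2 in Rsch and 3.43 to 4.05 in Te, against 6.11 to 10.25 in Col. Both genes varied between the CA arrays of Col, at 7.68, 7.44 and 9.95 log2 for AT1G66090 and 6.11, 7.19 and 9.08 for AT1G66100, with replicate 3 the highest for each. The low accessions had no such spread for AT1G66100.

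Leucine-rich repeat proteins outside the NLR class were represented by 3 genes, with differences of -4.75 to -3.24 log2 in Rsch and -4.78 to -3.23 in Te. AT5G45500, a protein with a leucine-rich repeat fold, had a lowest, median and highest array of 3.65, 4.02 and 4.37 log2 in Rsch and 3.70, 4.03 and 4.25 in Te, against 7.67, 8.87 and 9.61 in Col. AT3G43740 was at 3.00, 3.16 and 3.38 log2 in Rsch and 3.06, 3.23 and 3.52 in Te, against 5.77, 6.64 and 6.96 in Col. For both of these genes all 24 arrays of Rsch and Te were below the dim line. AT1G35710, a receptor-like kinase, overlapped instead, at 5.17, 5.69 and 8.07 log2 in Rsch and 4.71, 5.85 and 6.65 in Te, against 7.88, 9.51 and 10.47 in Col.

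Proteins of the cell wall and the space outside the cell with a part in defence made up 5 members: the thionin gene above, ECS1, SBT3.3, AT4G16260 and PRX52. Their differences ran from -3.99 to -1.5 log2 in Rsch and from -5.64 to -1.67 in Te. The arrays overlapped for 3 of the 5, against 28 of all 74 members. ECS1 encodes a small cell wall protein described in work on resistance to Xanthomonas. It stood at 8.05, 9.11 and 9.50 log2 in Rsch and 5.03, 5.78 and 5.87 in Te, against 10.86, 11.35 and 11.70 in Col. The accessions formed 3 separate bands for this gene, with Te lowest. SBT3.3, a subtilase linked to the priming of immune responses, was at 6.43, 8.05 and 9.56 log2 in Rsch and 7.07, 8.13 and 9.01 in Te, against 8.30, 9.98 and 11.27 in Col. Its accessions overlapped, as did those of the glucanase family gene AT4G16260 and of the class III peroxidase gene PRX52.

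Enzymes of secondary metabolism were 6 members, and none had all its Rsch and Te arrays below the dim line. Of these, AT1G26380, AT1G26390 and AT1G30700 belong to the berberine bridge enzyme family, and the product of AT1G26380 acts in the synthesis of an indole carbonyl nitrile made upon pathogen attack. AT3G13610 encodes the feruloyl-CoA hydroxylase of scopoletin synthesis, AT5G42830 an acyltransferase of the HXXXD family and AT1G68620 a carboxylesterase family protein. Differences ran from -2.58 to -1.57 log2 in Rsch and from -3.24 to -1.87 in Te. The arrays overlapped for 5 of the 6, against 28 of all 74 members, a description as above. AT1G26390, which adjoins AT1G26380, was the one that did not overlap, at 4.21 to 6.31 log2 in Rsch and 4.34 to 5.38 in Te, against 6.85 to 8.76 in Col. AT1G30700 overlapped widely, at 4.43 to 7.99 log2 in Rsch and 4.70 to 7.54 in Te, against 5.29 to 9.62 in Col.

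A further 10 members belong to other known families, and they include the AT3G47250 gene, whose product carries a plant-specific domain of unknown function. AT3G47250 had a lowest, median and highest array of 2.92, 3.16 and 3.28 log2 in Rsch and 3.00, 3.18 and 3.47 in Te, against 8.61, 9.20 and 9.84 in Col. AT2G01090, the hinge protein of respiratory complex III, had 3.06, 3.20 and 3.49 log2 in Rsch and 3.66, 4.05 and 4.51 in Te, against 8.07, 8.70 and 8.92 in Col. In both genes the low bands were narrow and more than 3 log2 below the lowest Col array. AT1G23960 and AT2G44240, which encode proteins of unknown function, lay at 3.80 to 4.47 and 4.07 to 4.81 log2 in Rsch and at 3.72 to 4.39 and 4.04 to 4.45 in Te, against 7.59 to 8.62 and 6.83 to 8.57 in Col. The rest were the DNAJ protein genes AT5G05750 and AT1G65280, AGL19 (a MADS-box factor that promotes flowering after vernalization), AT4G18930, AT5G43910 and AT4G02540.

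No role is given here for the remaining 7 named members. AT1G76960 ranked first by the mean of both differences among the named members, with a lowest, median and highest array of 3.23, 3.50 and 3.75 log2 in Rsch and 3.03, 3.31 and 3.62 in Te, against 8.49, 9.58 and 10.48 in Col. AT3G22240 differed by -4.64 and -4.40 log2 at much higher levels, at 6.53, 7.02 and 7.27 in Rsch and 6.79, 7.22 and 7.63 in Te, against 11.16, 11.62 and 11.97 in Col. All Rsch and Te arrays of AT3G22240 were above the dim line and still more than 3 log2 below Col. AT5G22530, AT3G44430, AT4G39320 and AT5G44580 are the others beside AT2G04460.

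AT2G04460, annotated as a pseudogene, varied widely between the Col arrays of a group. It read 3.28 to 4.09 log2 on the 24 Rsch and Te arrays. In Col it read 7.56, 8.62 and 3.74 when cold acclimated, 6.08 and 9.27 at 8 h, 7.63, 8.28 and 4.93 at 1 d and 8.64 and 7.40 at 3 d. The third CA array and the third 1 d array of Col were thus at or near the level of the other accessions, while the other 8 Col arrays read 6.08 log2 or more. Those 2 arrays still correlated best with their own accession over all probe sets.

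**Figure D3:**
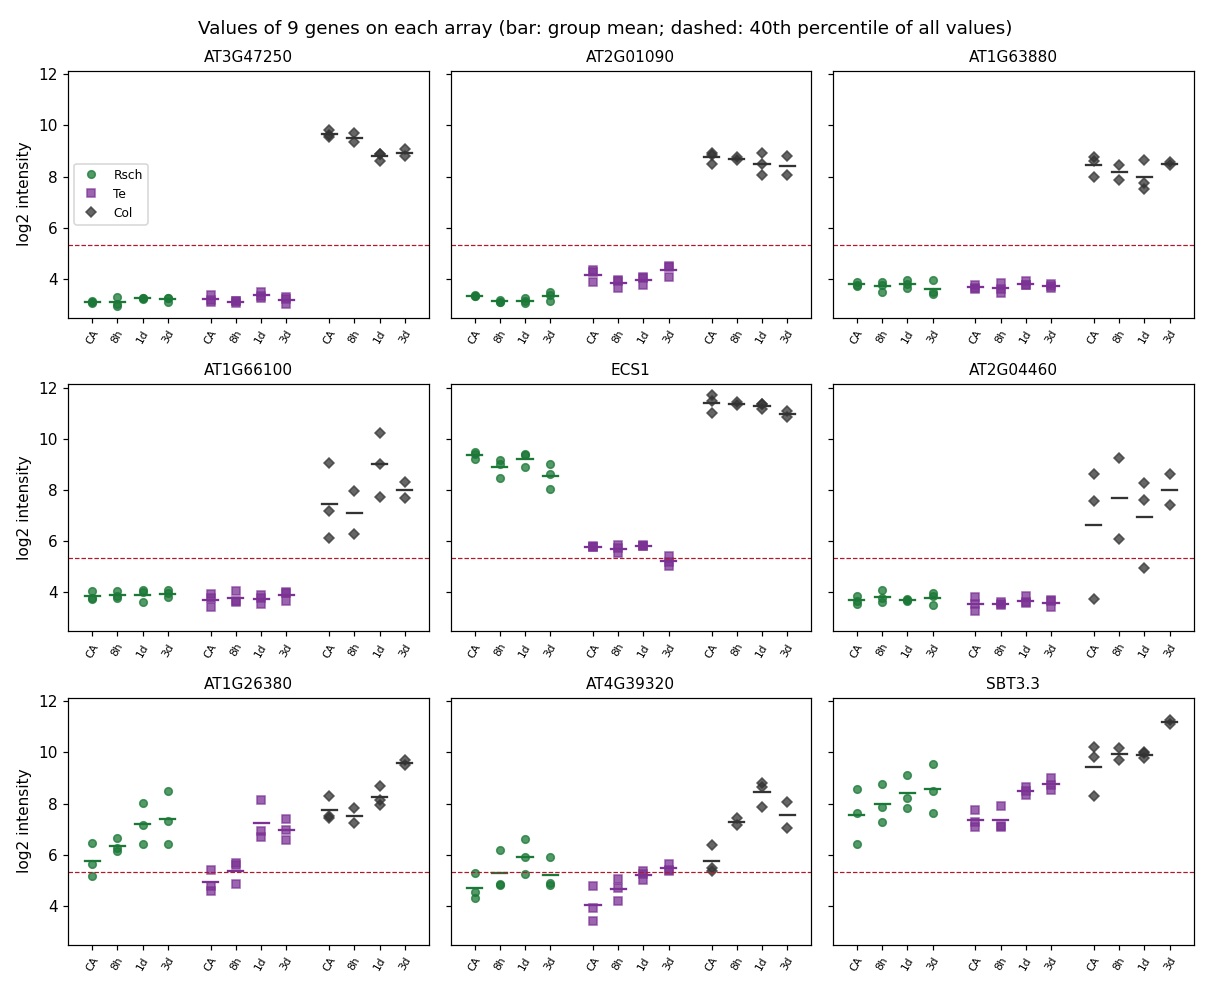
Log2 intensity on every array for 9 genes, with Rsch (green), Te (purple) and Col (dark) in each panel and the 4 conditions from CA to 3 d at -3 °C; short bars are group means and the dashed line is the 40th percentile of all values. AT3G47250, AT2G01090 and AT1G63880 lie in flat low bands in Rsch and Te, whereas AT1G26380 and SBT3.3 overlap with Col.

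The 36 members without a single gene differed from Col by -6.84 to -1.56 log2 in Rsch (median -2.32) and from -6.94 to -1.64 in Te (median -2.25), and 10 of them had all Rsch and Te arrays below the dim line. Among all 74, 8 probe sets (10.8%) carried the suffix that marks probes shared by several transcripts, against 4.11% of all tested. Of the 38 named members 15 lay on chromosome 1, or 39.5%, against 25.7% of the tested probe sets with 1 gene. None of the 38 genes had a second named probe set that could be set beside the first.

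In the RefSeq gene order, 37 probe sets of direct neighbours were measured. Of these, 4 were members themselves, forming the pairs AT1G66090 with AT1G66100 and AT1G26380 with AT1G26390, while members are 0.325% of all probe sets tested. Of the other 33, 15 had a Col mean of at least 6, with median differences of -0.003 log2 in Rsch and 0.16 in Te. These 15 had missed the rule, so their medians do not show how often neighbours share the difference. The rest had a lower Col mean and could not meet the rule. The 2 nearest to the limits were AT5G45510, beside AT5G45500, at -1.45 and -1.80 log2, and AT5G22540, beside AT5G22530, at -1.26 and -1.61. In the other direction AT1G57650, 2 genes from AT1G57630, was higher, by 2.16 log2 in Rsch and 1.79 in Te, and these 3 neighbours were chosen after their values were seen.

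Values near the limits of the rule show how gradual the edge is. Just inside were PRX52 (-1.5 log2 in Rsch and -1.78 in Te), AT4G16260 (-1.5 and -1.68) and AT5G43910 (-1.90 and -1.51). Just outside were AT5G58980 (-1.47 and -1.70), AT3G19550 (-2.07 and -1.45) and AT1G06640 (-1.69 and -1.45). By the Col mean, AT5G22530 (6.01 log2), AT1G63350 (6.34) and AT4G02540 (6.35) were just inside, and AT3G57460 (5.73), AT3G28510 (5.66) and AT3G29375 (5.25) just outside.

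Gene families were also listed by symbol. Members are 0.634% of all probe sets with a Col mean of at least 6, so 0 members in lists this small does not set a family apart. Of 27 glucosinolate and myrosinase probe sets 10 had a Col mean of at least 6, and likewise 8 of 23 cytochrome P450, 29 of 47 glycosyltransferase, 5 of 13 glutathione transferase, 2 of 4 lectin and 1 of 1 F-box probe sets, and 0 of these were members. CSA1 was the one NLR gene found by symbol, and it is a member. Lists of receptor-like kinases, terpene synthases and ribosomal proteins had 0 probe sets named here.

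Changes with time at -3 °C were not used to choose the members and were tested within each accession with limma, adjusted over all 22746 probe sets. In Col, 1 member was called higher and 0 lower at 8 h, against 0.347% and 0.0484% of all probe sets. At 1 d, 2 were higher (background 3.71%) and 9 lower (background 4.48%), and at 3 d 5 were higher (background 5.93%) and 9 lower (background 9.86%). As shares of the 74, the 9 lower members are 12.2% at either time, against 5.96% at 1 d and 15.2% at 3 d of the other probe sets with a Col mean of at least 6. The median change of the members at 3 d was -0.242 log2, against 0.018 over all probe sets and -0.137 over the other probe sets with a Col mean of at least 6.

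In Rsch no member was called at 8 h (background 0.906% higher and 0.4% lower) or at 1 d (3.19% and 2.99%), while limma's unadjusted p was under 0.05 for 7 members at 8 h (background 12.9%) and 8 at 1 d (background 18.1%). With the replicate number as a block 4 members were called at 1 d, 3 of them higher (background 9.98% in either direction). At 3 d 4 were higher (background 4.1%) and 1 lower (background 5.39%). In Te no member was called at 8 h (background 0.277% higher and 0.0396% lower), while 1 had an unadjusted p under 0.05 in limma (background 5.81%). At 1 d 3 were higher (background 2.11%) and 0 lower (1.37%), and at 3 d 4 were higher (background 5.07%) and 1 lower (background 8.01%). Leaving out the 2 doubted Te arrays gave 4 calls at 1 d and 5 at 3 d (background 4.47% and 15.6% in either direction).

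With the bioC set as a block, the calls at 8 h, 1 d and 3 d numbered 0, 1 and 6 in Rsch, 0, 3 and 7 in Te and 1, 12 and 17 in Col. Of all probe sets that fit called 1.12%, 7.82% and 11.8% in Rsch, 0.215%, 4.77% and 15.3% in Te and 0.382%, 10.2% and 19.4% in Col. Within the 25 arrays of the larger bioC set the members called numbered 0, 0 and 4 in Rsch, 0, 1 and 6 in Te and 1, 9 and 10 in Col. The background there was 0.752%, 3.58% and 7.37% in Rsch, 0.369%, 3.83% and 13.5% in Te and 0.422%, 4.43% and 12.7% in Col. The smaller set had 1 array for each of its groups and gives no test.

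Of the 10 receptor and other leucine-rich repeat genes, 3 were called lower in Col at 1 d or 3 d (CSA1, AT5G45500 and AT4G19500), 1 was called higher (AT1G63350) and 6 were not called. Of the other probe sets with a Col mean of at least 6, 5.96% were called lower at 1 d and 15.2% at 3 d. For higher, these shares were 5.68% and 8.59%. The share called at either time was not counted, and counts in so few genes are a description. CSA1, a TIR-NB-LRR gene, read 6.29, 6.02 and 6.25 log2 at 1 d and 6.57 and 5.79 at 3 d, against 6.90, 7.12 and 7.77 when cold acclimated. It fell by 1.08 ± 0.19 log2 at 1 d (SE, limma adjusted p = 0.000629) and fell by 1.09 ± 0.21 at 3 d (adjusted p = 0.00131). All 5 arrays at 1 d and 3 d were below the lowest CA array. The Rsch and Te arrays of this gene stayed between 4.22 and 4.79 log2.

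AT5G45500 read 8.72, 7.94 and 8.01 log2 at 1 d and 8.43 and 7.67 at 3 d in Col, against 9.48, 9.02 and 9.24 when cold acclimated. It fell by 1.02 ± 0.20 log2 at 1 d (SE, limma adjusted p = 0.00178) and fell by 1.20 ± 0.22 at 3 d (adjusted p = 0.000975), with no overlap. AT4G19500, a TIR-NB-LRR gene, fell by 0.57 ± 0.12 log2 at 1 d (adjusted p = 0.00401) and fell by 0.66 ± 0.14 at 3 d (adjusted p = 0.00222, limma). AT1G65280, a DNAJ protein gene, fell by 0.72 ± 0.18 log2 at 3 d (limma adjusted p = 0.00757). Without replicate 2 of Col at 3 d, limma's adjusted p at 3 d was 0.113 for CSA1, 0.0843 for AT5G45500, 0.092 for AT4G19500 and 0.0795 for AT1G65280, and the number of members called in Col at 3 d was 3. The coiled-coil NLR gene AT1G63350 rose by 0.54 ± 0.17 log2 at 1 d in Col (limma adjusted p = 0.0464), a call lost on leaving out any of 22 arrays.

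AT1G76960 and AT3G47250 also fell in Col. AT1G76960 read 9.59, 9.57 and 8.72 log2 at 1 d and 8.49 and 8.76 at 3 d, against 10.48, 10.29 and 9.57 when cold acclimated. It fell by 0.82 ± 0.19 log2 at 1 d (SE, limma adjusted p = 0.0067) and fell by 1.49 ± 0.21 at 3 d (adjusted p = 7.72e-05). Both 3 d arrays were below all 3 CA arrays. At 1 d replicates 1 and 2, at 9.589 and 9.573 log2, lay just above the lowest CA array, at 9.568. The 1 d call was lost without replicate 3 of Col at 1 d or replicate 1 of the Col CA arrays, where the highest adjusted p was 0.0603. Its adjusted p was 0.0671 within the larger bioC set and 0.289 in a limma fit of only the arrays compared. AT3G47250 read 8.61, 8.90 and 8.88 log2 at 1 d and 9.06 and 8.80 at 3 d, against 9.84, 9.53 and 9.64 when cold acclimated. It fell by 0.88 ± 0.12 log2 at 1 d (SE, limma adjusted p = 3.96e-05) and fell by 0.74 ± 0.13 at 3 d (adjusted p = 0.000638), without overlap.

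These 2 genes were also the members called by limma's F test of the measured change between accessions over the 3 times. Of all probe sets, 0.0308% were called for Rsch against Col and 0.0572% for Te against Col. For AT3G47250 the adjusted p was 0.0116 for Rsch and 0.00958 for Te, and at 1 d its change was 0.147 log2 in Rsch and 0.145 in Te, against -0.877 in Col, a difference of 1.02 ± 0.17 for either (SE). For AT1G76960 the adjusted p was 0.0139 for Rsch and 0.0493 for Te (limma F test), and at 3 d its change was -0.141 log2 in Rsch and -0.194 in Te, against -1.488 in Col. The Rsch and Te arrays of both genes lay between 2.92 and 3.75 log2, far below the dim line, and whether a fall could be measured at that level was not tested. The F tests cannot tell a different response from a signal too low to fall. Of the 25 members with every Rsch and Te array below the dim line, 0 were called in Rsch, 0 in Te and 8 in Col at any time. The cut itself holds these Rsch and Te arrays low and limits their changes, so the counts are a description. The share of all probe sets called at any time was not counted. Within the larger bioC set limma's adjusted p of AT3G47250 was 0.36 for Rsch and 0.289 for Te, and that of AT1G76960 was 0.307 and 0.529. The Rsch call of AT1G76960 was lost on leaving out any of 4 arrays (replicate 1 or 2 of Col at 8 h, replicate 1 of Col at 3 d or replicate 1 of Rsch at 3 d), with a highest adjusted p of 0.0714 in limma. The Te call was lost on leaving out any of 29 arrays, and without the 2 doubted Te arrays its adjusted p was 0.198 (limma).

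**Figure D4:**
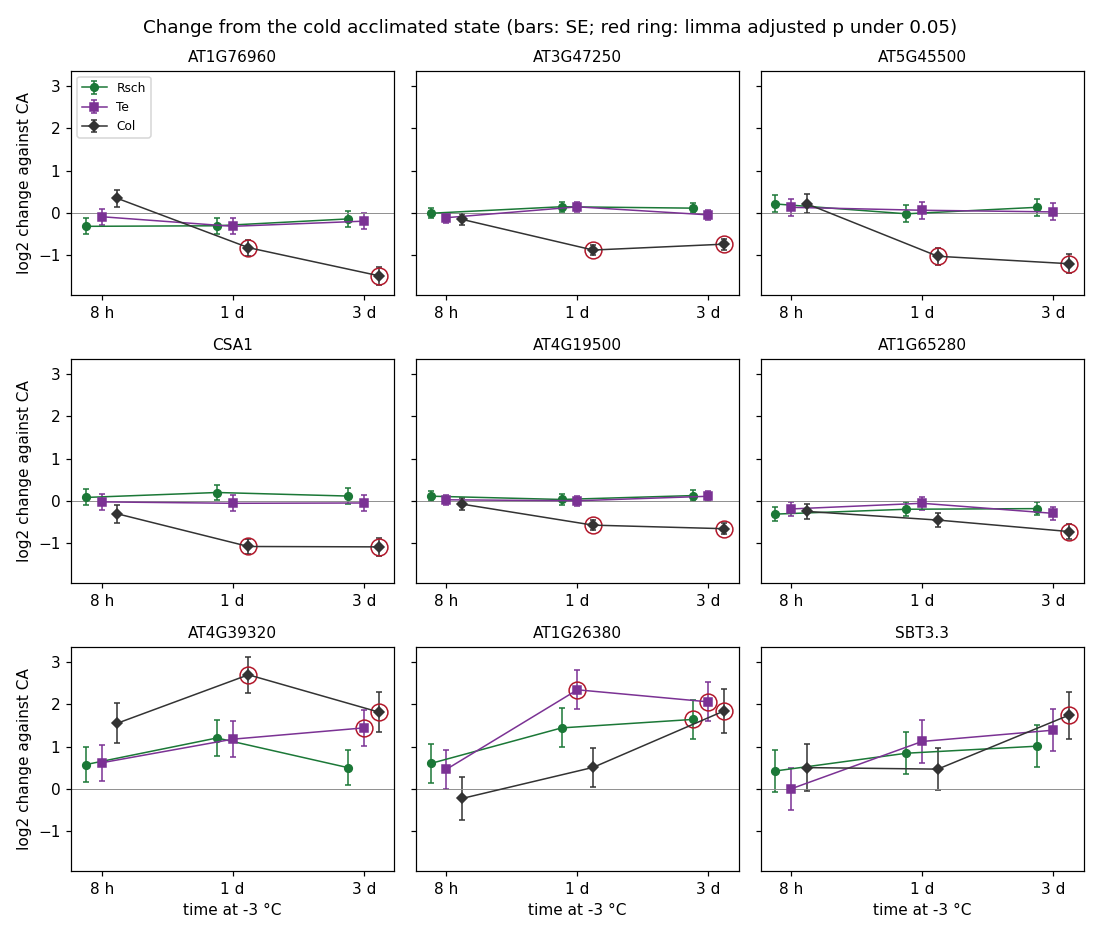
Change of log2 intensity from CA leaves after 8 h, 1 d and 3 d at -3 °C for 9 genes in Rsch, Te and Col, with standard errors from the fit. Red rings mark limma adjusted p under 0.05: the genes of the upper 2 rows have rings in Col alone, and AT1G26380 has rings in all 3 accessions.

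Genes that rose included AT1G26380, the oxidase of the berberine bridge enzyme family, which was called in each accession. In Rsch it read 7.30, 8.49 and 6.41 log2 at 3 d, against 5.15, 6.47 and 5.64 when cold acclimated, a rise of 1.64 ± 0.46 (SE, limma adjusted p = 0.024). In Te it rose by 2.35 ± 0.46 log2 at 1 d (adjusted p = 0.00458) and by 2.06 ± 0.46 at 3 d (limma adjusted p = 0.00421), with 7.38, 6.58 and 6.95 at 3 d against 4.78, 5.38 and 4.57 when cold acclimated. In Col it read 9.49 and 9.71 log2 at 3 d, against 7.43, 7.52 and 8.31 when cold acclimated, a rise of 1.85 ± 0.52 (limma adjusted p = 0.0159). Arrays overlapped between 3 d and CA leaves in Rsch alone, by 1 array.

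Without replicate 2 at 3 d, the Col call of AT1G26380 had an adjusted p of 0.153 (limma). The Rsch call was lost without replicate 2 at 3 d or replicate 1 or 3 of the CA arrays, with a highest adjusted p of 0.191. Without the 2 doubted arrays the Te changes were 1.90 log2 at 1 d (limma adjusted p = 0.0247) and 1.85 at 3 d (adjusted p = 0.0112). Within the larger bioC set limma's adjusted p was 0.142 for Rsch at 3 d, 0.0766 for Te at 1 d, 0.039 for Te at 3 d and 0.0892 for Col at 3 d. Neither F test called this gene.

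AT4G39320 read 7.88, 8.63 and 8.81 log2 at 1 d in Col and 7.06 and 8.05 at 3 d, against 5.36, 6.40 and 5.47 when cold acclimated. It rose by 2.70 ± 0.42 log2 at 1 d (SE, limma adjusted p = 0.000196) and by 1.81 ± 0.47 at 3 d (adjusted p = 0.0104, and 0.235 without replicate 2 at 3 d). In Te it read 5.64, 5.36 and 5.41 at 3 d, against 4.78, 3.89 and 3.41 when cold acclimated, a rise of 1.44 ± 0.42 (limma adjusted p = 0.024, and 0.0609 without the 2 doubted arrays). The Te call was also lost without any 1 of the 3 arrays at 3 d or without replicate 2 or 3 of the CA arrays, with a highest adjusted p of 0.149 (limma). All arrays at these times lay above the CA arrays of the same accession. SBT3.3 rose at 3 d in Col by 1.74 ± 0.56 log2 (limma adjusted p = 0.0342), to 11.10 and 11.27, against 10.21, 9.82 and 8.30 when cold acclimated. That call was lost without either Col array at 3 d or without replicate 3 of the CA arrays, with a highest adjusted p of 0.222. The adjusted p was 0.0665 within the larger bioC set, 0.147 with array weights and 0.174 in a limma fit of only the arrays compared.

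ECS1 fell in Rsch at 3 d by 0.80 ± 0.20 log2 (SE, limma adjusted p = 0.0119), to 9.01, 8.63 and 8.05, against 9.20, 9.40 and 9.51 when cold acclimated. The groups did not overlap, and the call was lost without replicate 3 of either group, with a highest adjusted p of 0.108.

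Te and Rsch were then compared with each other, since the rule bounds both means without using their difference. With limma, 8 members were higher in Te (background 12.2%) and 12 lower (background 10.1%). These are 10.8% and 16.2% of the members. Of the other probe sets with a Col mean of at least 6, 16.7% were higher and 13.2% lower. ECS1 differed by -3.38 ± 0.10 log2 (SE, adjusted p = 3.79e-19), with every Te array below every Rsch array. AGL19 differed by -1.49 ± 0.15 log2, at 3.61 in Te against 5.09 in Rsch (limma adjusted p = 3.03e-08), without overlap. AT4G18930, of the cyclic phosphodiesterase family, was at 7.52 log2 in Te, against 8.54 in Rsch (limma adjusted p = 0.000294), and its arrays overlapped.

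Among those higher in Te, AT2G01090 was at 4.08 log2 in Te, against 3.23 in Rsch, a difference of 0.84 ± 0.09 (SE, limma adjusted p = 1.65e-07) at which the arrays did not overlap although all were below the dim line. AT3G44630 was at 5.98 log2 in Te, against 5.12 in Rsch, a difference of 0.86 ± 0.13 (limma adjusted p = 1.61e-05). AT3G22240, AT1G26390 and AT1G63350 had differences of 0.25, -0.66 and -0.23 log2 with limma adjusted p of 0.0473, 0.0394 and 0.0483, and each call was lost on leaving out single arrays, 22, 13 and 24 in number. Without the 2 doubted Te arrays 19 members were called (background 22% in either direction), and within the larger bioC set 22 (background 18.8%).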

How the data were processed

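Leaf RNA of 34 samples was hybridised to 1 Affymetrix ATH1 array each. The deposited values are log2 intensities per probe set that the authors made with RMA, per the submitters' processing notes, with no version given in the sources used here. Their range is that of a log2 scale, which no source states. The 64 control probe sets were left out, and the 22746 others were used without a filter. Arrays were grouped by title; the source names of the third CA replicates say replicate 2, and the titles were followed.

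All 12 group means were estimated in 1 linear fit with limma 3.58.1 in R 4.3.3 (lmFit, eBayes, 22 residual degrees of freedom) after it had been tested on simulated data. The contrasts were each time against CA within an accession, the F test of Rsch or Te change against Col change, and Te minus Rsch. Tests were two-sided, and a call means an adjusted p (Benjamini-Hochberg, over all probe sets) under 0.05. Differences of Rsch or Te from Col chose the members and were not tested. Deviations of same-numbered arrays correlated over 0.1 in all 18 pairs of Rsch (0.211 to 0.587) and all 13 of Col (0.168 to 0.579). The numbers in the titles were taken to pair the arrays there. In Te 13 of 18 pairs did so (lowest -0.243), and there they were not. The main fit had no block, so its p-values ignored that pairing. The replicate number as a block gave each number the same offset in every accession, Te included. That is not a pairing within each accession, which was not fitted. With this block, members called at 8 h, 1 d and 3 d were 0, 4 and 6 in Rsch. In Col they were 1, 15 and 17. That fit called 2.91%, 9.98% and 15.4% of all probe sets in Rsch and 0.651%, 12.8% and 21% in Col.

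Gene names come from the platform annotation, updated through RefSeq (assembly TAIR10.1, used for names, chromosome numbers and gene order). Of the tested probe sets 13513 had 1 gene, 503 had several and 8730 were unnamed here, and a gene was named only from a probe set with 1 gene. The genes named were the 14 with the most negative mean difference, those at the limits, up to 3 called in each direction per accession and time, those called by an F test, up to 4 in each direction for Te minus Rsch, members of the lists, and adjacent members. Other members are named to complete their family, having been chosen after their values were seen. Members, lists and families were chosen with earlier results of these data known. Lists that needed gene descriptions could not be matched and were not analysed here. Alternatives were other scalings, filters, blocks, weights, arrays left out and other limits of the rule.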

Additional observations from a re-analysis of the deposited data

Results flagged for a closer look

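The measured change from cold acclimated leaves differed between accessions for 2 genes by limma's F test over 8 h, 1 d and 3 d. For AT3G47250 the adjusted p was 0.0116 for Rsch against Col and 0.00958 for Te against Col. For AT1G76960 it was 0.0139 for Rsch against Col and 0.0493 for Te against Col. At 3 d the change of AT3G47250 was 0.114 log2 in Rsch and -0.045 in Te, against -0.738 in Col. Both genes lay far below the dim line on every Rsch and Te array, and the part of that in the difference was not tested. The F tests cannot tell a different response from a signal too low to fall.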

How the results depend on the processing

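With limits of -1 and -2 log2 in the rule, 195 and 44 probe sets met it, and with 1 array left out 68 to 85 did. Quantile normalization gave 81, median centring of arrays 77, dropping probe sets with shared-probe suffixes 66, and the mean over arrays 75. CA arrays alone gave 98, of which 64 are among the 74. Leaving out 1 array at a time gave 0 to 1 calls in Col at 8 h, 9 to 16 at 1 d and 3 to 16 at 3 d. It gave 0 to 0 in Rsch at 8 h, 0 to 3 at 1 d and 2 to 7 at 3 d. In Te it gave 0 to 0 at 8 h, 1 to 4 at 1 d and 2 to 6 at 3 d. The single Col call at 8 h was lost without either 8 h array. The low ends came without replicate 1 or 3 of the CA arrays or replicate 2 at 3 d in Rsch, without replicate 1 of CA or 3 of 1 d for Te at 1 d, and without replicate 3 of CA or replicate 2 or 3 of 3 d for Te at 3 d. The F tests called 1 to 4 members for Rsch and 1 to 4 for Te, and Te minus Rsch called 16 to 23. Shares of all probe sets called with 1 array left out are not given here, so these ranges do not set the members apart.

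Rsch at 1 d, with no call, had 1 call under quantile normalization, without shared-probe suffixes, with the bioC block and without the 2 doubted Te arrays, 3 calls under centring and without dim probe sets, and 5 with array weights. The Te F test, with 2 calls, had 1 under quantile normalization, centring, without dim probe sets, without shared-probe suffixes, with the bioC block and without the 2 doubted Te arrays. The Rsch F test had 1 call under centring and 0 in the larger bioC set, where Te at 1 d had 1. Array weights gave 3 calls for Col at 8 h, 9 for Col at 3 d and 13 for Te at 3 d. Fits of only the arrays compared gave 0, 4 and 1 calls for Col at 8 h, 1 d and 3 d, 1 for Rsch at 3 d, 6 and 14 for Te at 1 d and 3 d, and 0 for either F test. The causes were not tested, beyond fewer arrays entering such fits. Shares of all probe sets called with other scalings, filters, array weights or only the arrays compared are not given here. Those counts therefore do not set the members apart. The 2 settings chosen after seeing the data were the larger bioC set alone and leaving out the doubted Te arrays.

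The replicate block gave 4 calls for Rsch at 1 d (background 9.98% in either direction, and 6.18% in the main fit). It gave 8 for Te at 3 d (background 18.8%, and 13.1% in the main fit), where the numbers were not taken to pair the arrays. The block moved no other count of calls by over 1.5 times and ended no call of a named gene. Of 33 named results called, 8 were called under all alternatives run, 25 lost the call under some and 0 reversed. Signal over background is unknown without detection calls.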
